A study of Mus musculus with 12 samples.

Results

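Prokr2, Lrrc15, Prss35 and Anxa8 are 4 genes of 28004 measured in mouse lung cells whose levels were near absent or low at embryonic day E17.5 and clear at postnatal day P3. They were chosen by that very pattern, so their levels at E17.5 and P3 are given as a description, with no test, and support nothing further. All 4 passed the filter on low values, which they could pass on their postnatal levels alone. The cells came from whole lung, dissociated and sorted by flow cytometry for red and green fluorescence together. Every group carried the same genotype, Acta2-dsRed+ and Pdgfra-GFP+: the red protein reports Acta2, the smooth muscle actin gene, and the green one Pdgfra, a platelet-derived growth factor receptor gene. The groups were E17.5, P3, P7 and P10, with no treatment named and 3 libraries each. The labels do not tie libraries to animals. A p-value here sets the difference between stages against the spread between libraries, and that spread may be technical.

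Cells that carry both markers include the secondary crest myofibroblasts, contractile cells at the tips of the septa that divide the air sacs into alveoli after birth. Prokr2 encodes a G protein-coupled receptor for the prokineticins, small secreted ligands. Lrrc15 encodes a leucine-rich repeat membrane protein known as a marker of fibroblasts activated by transforming growth factor beta (TGF-beta). Prss35 encodes a secreted protein of the serine protease family thought to lack the usual catalytic serine. Anxa8 encodes an annexin, a protein that binds membranes when calcium is present.

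The bases just before each gene's start show what the 4 promoters share and where they differ. The sequences are RefSeq promoters on GRCm38.p6, all 4 genes matched, and each run is the 250 bases before the start, 5′ to 3′ on the gene's strand. Capitals mark a match to a GC box, a CCAAT box, an AP-1 motif or a RUNX motif.
Prokr2, chr2:132385448-132385697, minus strand: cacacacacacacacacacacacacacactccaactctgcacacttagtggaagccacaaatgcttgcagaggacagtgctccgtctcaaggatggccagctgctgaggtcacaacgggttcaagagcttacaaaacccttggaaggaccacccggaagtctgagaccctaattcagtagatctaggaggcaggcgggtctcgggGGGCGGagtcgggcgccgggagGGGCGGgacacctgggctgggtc
Lrrc15, chr16:30283255-30283504, minus strand: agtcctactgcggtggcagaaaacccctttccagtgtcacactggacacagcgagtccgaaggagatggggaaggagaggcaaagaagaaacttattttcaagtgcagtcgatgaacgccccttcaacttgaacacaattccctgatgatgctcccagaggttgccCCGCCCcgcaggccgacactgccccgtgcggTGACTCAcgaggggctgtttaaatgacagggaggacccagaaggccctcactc
Prss35, chr9:86743383-86743632, plus strand: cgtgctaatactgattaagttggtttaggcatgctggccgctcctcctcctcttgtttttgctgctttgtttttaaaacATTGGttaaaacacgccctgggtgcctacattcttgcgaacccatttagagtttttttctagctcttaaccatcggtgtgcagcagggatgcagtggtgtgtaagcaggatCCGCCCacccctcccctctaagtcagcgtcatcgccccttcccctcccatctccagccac
Anxa8, chr14:34085729-34085978, plus strand: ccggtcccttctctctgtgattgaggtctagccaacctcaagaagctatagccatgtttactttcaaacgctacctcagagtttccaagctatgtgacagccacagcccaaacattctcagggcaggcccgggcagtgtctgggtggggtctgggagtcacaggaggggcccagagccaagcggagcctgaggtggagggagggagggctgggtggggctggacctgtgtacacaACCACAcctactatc
The search covered both strands for the GC box GGGCGG, the CCAAT box CCAAT, the AP-1 motif TGANTCA, the RUNX motif TGTGGT, the E-box CANNTG, the TATA box TATAAA, the TEAD motif GGAATG, the SMAD palindrome GTCTAGAC and the CArG box. Prokr2 held 2 GC boxes, starting 45 and 23 bases before the start, and 3 E-boxes. Lrrc15 held a GC box, an E-box and an AP-1 motif that starts 53 bases before the start. Prss35 held a CCAAT box and a GC box, and Anxa8 held a single RUNX motif.

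No motif searched was found in all 4 promoters. The GC box, present in 3 of them, was in 32.7% of all 32851 RefSeq mouse promoters of the same length, the E-box in 66.2%, the CCAAT box in 33.8%, the RUNX motif in 14.1% and the AP-1 motif in 6.75%. The TATA box (12.4% of all promoters), the TEAD motif (12.6%), the SMAD palindrome (0.167%) and the CArG box (1.47%) had no match in the 4 windows. The windows were 59.2% G and C for Prokr2, 56.4% for Lrrc15, 50.8% for Prss35 and 58.0% for Anxa8, against a median of 52.4% over all promoters. Anxa8 had 4 CpG dinucleotides, where Prokr2 had 10, Lrrc15 11, Prss35 8 and the median promoter 6. A match is a match of letters, and binding was not measured.

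Prokr2 lies on chromosome 2 (132337733 to 132385447, minus strand, GRCm38, GENCODE M21) with 5 annotated transcripts. Levels are in CPM, estimated counts scaled to a common library total; the estimated counts also look scaled by transcript length, so CPM can be set side by side between genes as amounts per length. Prokr2 was listed at 0.0680, 0.0973 and 0 CPM in the E17.5 libraries and at 97.2, 103 and 23.5 CPM in the P3 libraries. In the P7 libraries it stood at 74.4, 62.9 and 51.2 CPM, and in the P10 libraries at 119, 57.9 and 51.8 CPM. Every postnatal library was above every E17.5 library. Between P3 and E17.5 the choice of the gene fixes that separation, which held, with P3 the higher, for 19.3% of tested genes. P3 replicate 3 was the lowest of the 9 postnatal libraries. The stage means were 0.055 ± 0.050, 74.7 ± 44.4, 62.8 ± 11.6 and 76.2 ± 37.1 CPM (SD, n = 3), in order of age.

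The means of Prokr2 at P3, P7 and P10 differed by less than the SD at P3 and the SD at P10, and their libraries overlapped. At P3 the mean lay at percentile 92.5 of the tested genes. At E17.5 the 3 estimated counts were 1, 1 and 0, and no fold change is given against them. A value of 1 in these length-scaled data is not a read, and a listed 0 may be a rounded value. In bulk samples, fewer cells that express a gene and less RNA per cell cannot be told apart.

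**Figure D1:**
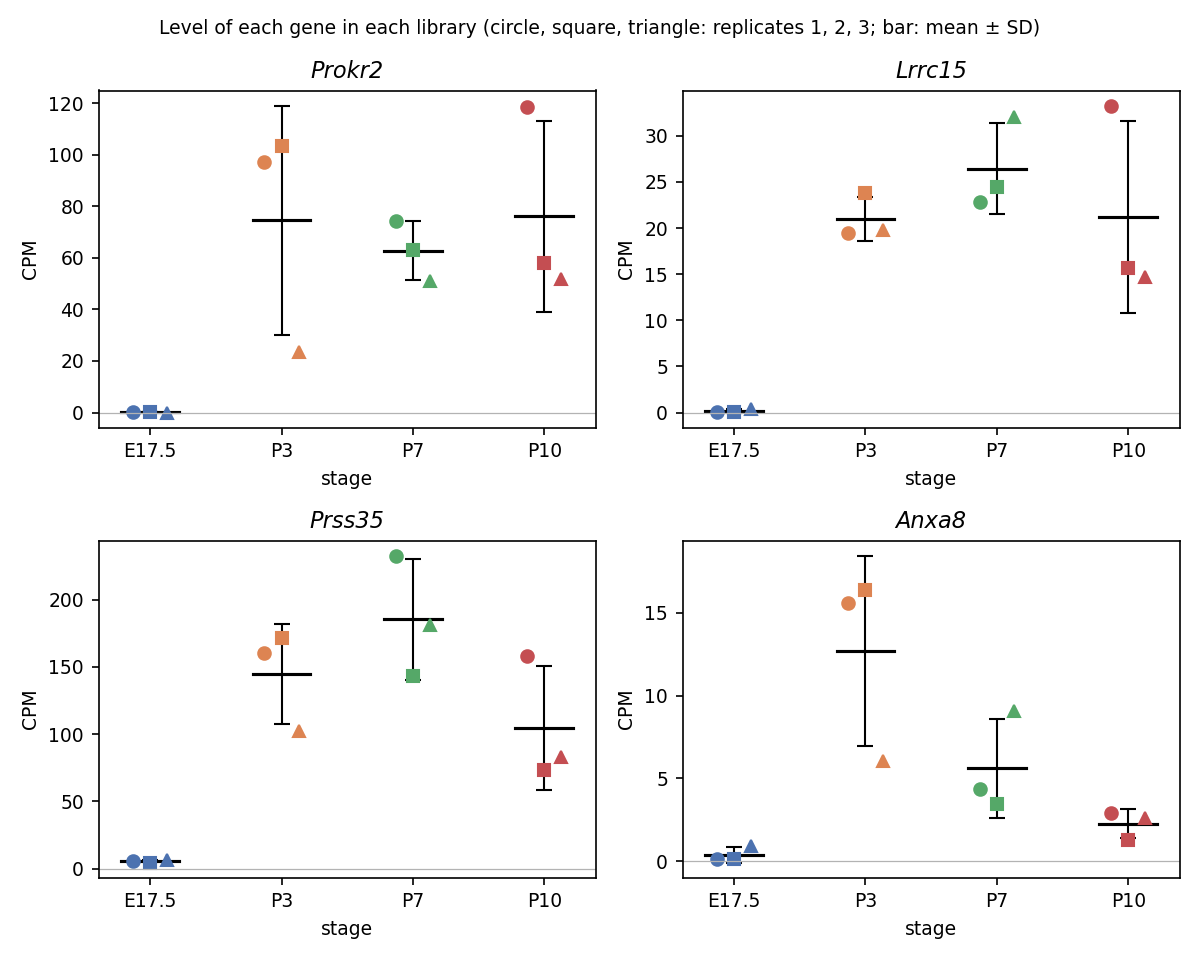
Level of Prokr2, Lrrc15, Prss35 and Anxa8 (CPM, linear axis from 0) in each of the 12 libraries by stage, with bars for the mean and SD of 3 libraries. Prokr2, Lrrc15 and Prss35 stay high after P3, while Anxa8 stands at 12.7 CPM at P3 and 2.27 at P10.

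Lrrc15 lies on chromosome 16 (30269302 to 30283256, minus strand) with 1 annotated transcript. It stood at 0.0680, 0.0973 and 0.365 CPM in the E17.5 libraries and at 19.4, 23.8 and 19.8 CPM in the P3 libraries. The P7 libraries read 22.9, 24.4 and 32.0 CPM and the P10 libraries 33.2, 15.7 and 14.7 CPM. Lrrc15 was the steadiest of the 4 genes at P3, where its highest library was 1.22 times its lowest. Its means in order of age were 0.177 ± 0.164, 21.0 ± 2.40, 26.4 ± 4.91 and 21.2 ± 10.4 CPM. The postnatal means differed by less than the SD at P10. Those of P3 and P7 differed by more than the SD of either stage, although their libraries overlapped. Its E17.5 estimated counts were 1, 1 and 7, and no fold change is given against them.

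Prss35 lies on chromosome 9 (86743649 to 86758443, plus strand) with 2 annotated transcripts, and its mean was the highest of the 4 at every stage. It stood at 5.78, 4.57 and 6.31 CPM in the E17.5 libraries, and its E17.5 mean of 5.55 ± 0.89 CPM was at percentile 46.1 of the tested genes. Prss35 was therefore not near absent before birth, against the description under which it was chosen. The P3 libraries read 160.5, 171 and 102 CPM, the P7 libraries 233, 143 and 181 CPM, and the P10 libraries 158, 73.4 and 83.1 CPM. The means after birth were 145 ± 37.0, 186 ± 45.0 and 105 ± 46.2 CPM, and the P3 mean was 26.1 times the E17.5 mean. P7 and P10 overlapped through P10 replicate 1, which was above the lowest P7 library.

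Anxa8 lies on chromosome 14 (34085981 to 34100571, plus strand) with 2 annotated transcripts. It stood at 0.136, 0.0973 and 0.939 CPM in the E17.5 libraries, at 15.6, 16.4 and 6.08 CPM in the P3 libraries, at 4.34, 3.44 and 9.05 CPM in the P7 libraries and at 2.91, 1.29 and 2.59 CPM in the P10 libraries. Its means were 0.391 ± 0.475, 12.7 ± 5.75, 5.61 ± 3.01 and 2.27 ± 0.86 CPM. Its E17.5 estimated counts were 2, 1 and 18, and no fold change is given against them either. Anxa8 was the only one of the 4 whose mean was lower at each later postnatal stage. The P10 mean was 0.178 of the P3 mean, and the P3 and P7 libraries overlapped.

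The P7 and P10 libraries took no part in the choice of the genes. From P7 to P10, 0 of the 4 passed edgeR's quasi-likelihood test at an adjusted p of 0.05. The spread in that test came from all 12 libraries, those of E17.5 and P3 included. Of all 16827 tested genes, 1.40% passed as higher and 2.25% as lower at P10. At an unadjusted p of 0.05, 1 of the 4 (Prss35, lower) passed, as did 10.3% of all tested genes in that direction, and it no longer did so without P7 replicate 1, P10 replicate 2 or P10 replicate 3. With DESeq2 and with limma-voom 0 of the 4 passed after adjustment. The log2 fold change of Prokr2 was 0.28 (SE 0.51, adjusted p = 0.813, edgeR), with an interval of 2 SE either way from -0.74 to 1.30. Lrrc15 gave -0.32 (SE 0.33, adjusted p = 0.634), interval -0.98 to 0.34. Prss35 gave -0.82 (SE 0.31, adjusted p = 0.165, edgeR), interval -1.44 to -0.21. Anxa8 gave -1.30 (SE 0.63, adjusted p = 0.281, edgeR), interval -2.57 to -0.04. That interval leaves out 0 although the unadjusted p was 0.066 (edgeR), so 2 SE is a narrow measure here. The libraries of Anxa8 did not overlap between the stages, as held for 15.0% of tested genes lower at P10. These intervals leave room for differences of more than 2-fold in Prokr2, Prss35 and Anxa8. That of Lrrc15 ends at -0.98, close to a 2-fold difference, so such a difference is not excluded there either. For Prokr2 the width depended on the P3 libraries. Its SE was 0.36 in a fit of the 6 libraries alone and 0.32 without P3 replicate 3, so its interval was narrower there.

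Single libraries moved these values. Without P10 replicate 1, Prss35 fell by 1.27 on the log2 scale and passed (adjusted p = 0.0302, edgeR), Lrrc15 gave -0.83 (adjusted p = 0.126), Anxa8 -1.54 (adjusted p = 0.299), and Prokr2 changed sign to -0.23 (adjusted p = 0.869). Anxa8 gave -0.77 without P7 replicate 3 (adjusted p = 0.645) and -1.54 without P7 replicate 2. Lrrc15 gave -0.09 without P10 replicate 3, -0.14 without P10 replicate 2 and -0.15 without P7 replicate 3. Prokr2 gave 0.51 without P10 replicate 3, 0.44 without P10 replicate 2 or P7 replicate 1 and 0.16 without P7 replicate 3. Against P3, whose libraries took part in the choice, the log2 differences are given with no test. At P7 they were -0.25 for Prokr2, 0.33 for Lrrc15, 0.36 for Prss35 and -1.18 for Anxa8. At P10 they were 0.03, 0.01, -0.47 and -2.48 in the same order.

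**Figure D2:**
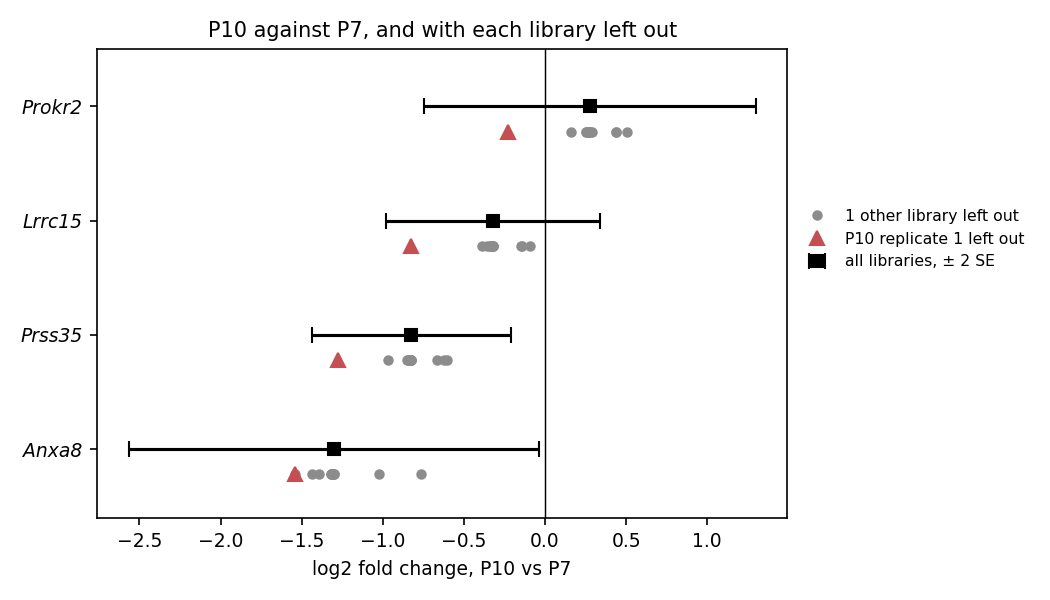
Log2 fold change from P7 to P10 of the 4 genes with all libraries (black squares, bars of 2 SE) and with 1 library left out (points; triangles for P10 replicate 1). Prokr2 moves from 0.28 to -0.23 and Prss35 from -0.82 to -1.27 without P10 replicate 1.

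In some libraries of a stage the 4 genes were high or low together. P10 replicate 1 was the highest of its stage for all 4, at 1.56 times the stage mean for Prokr2, 1.57 for Lrrc15, 1.51 for Prss35 and 1.28 for Anxa8. P3 replicate 2 was the highest of its stage for all 4, and P3 replicate 3 the lowest for Prokr2, Prss35 and Anxa8, with Prokr2 at 0.315 of its stage mean. At P7 no library was highest for more than 2 of the 4. Over the 9 postnatal libraries, Pearson's r on log2(CPM + 0.5) was 0.73 for Lrrc15 with Prss35, 0.58 for Prss35 with Anxa8 and 0.49 for Prokr2 with Prss35. It was 0.35 for Prokr2 with Lrrc15, 0.30 for Lrrc15 with Anxa8 and 0.20 for Prokr2 with Anxa8. The points share libraries and their depth, so these values only describe them.

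Summed marker levels of 11 cell types also differed between libraries of a stage. In P10 replicate 1, 9 of the 11 sums were the lowest of the stage and 2 the highest. The 14 alveolar epithelial markers summed to 59.4 CPM there, against 205 and 154 in the other P10 libraries, the 10 airway epithelial markers to 72.2 against 209 and 256.5, and the 11 endothelial markers to 49.0 against 144 and 138. The 2 sums that were highest there, with the 4 genes, were those of the 16 secondary crest myofibroblast markers, among them Acta2, Tagln and Pdgfra (4815 CPM against 3690 and 3864), and of the 10 pericyte markers (273 against 217 and 236).

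At P3 the sums took both directions. In P3 replicate 3, 6 of the 11 were the highest of the stage, among them alveolar epithelial (255 CPM against 176 and 174) and endothelial (92.3 against 68.9 and 69.4). In the same library 3 were the lowest, as 3 of the 4 genes were: alveolar fibroblast (919.9 CPM against 1318 and 1332), immune (21.1 against 22.9 and 23.2) and Schwann cell and neuron markers (5.20 against 9.82 and 6.32). In P3 replicate 2, highest for all 4 genes, the alveolar fibroblast, immune and erythroid sums were the highest. No marker of these lists was at 0 in every library. Their part in the levels of the 4 genes was not tested.

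**Figure D3:**
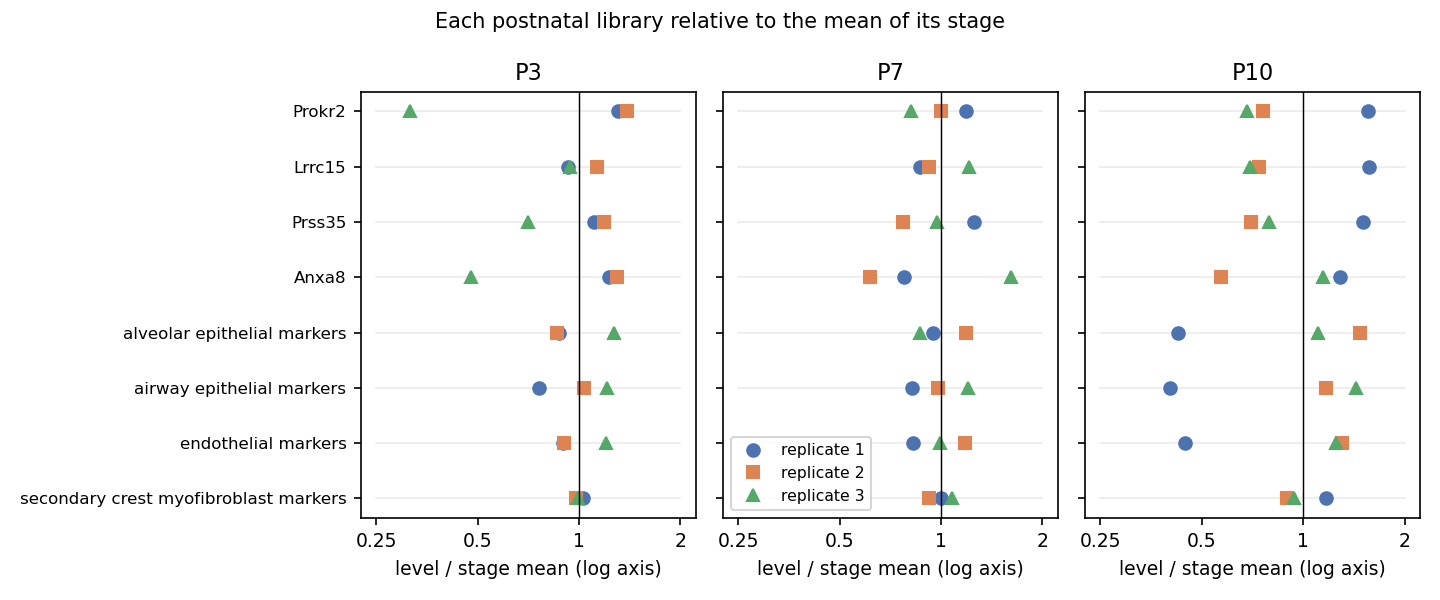
Level of the 4 genes and summed level of 4 marker lists in each postnatal library, divided by the mean of its stage (log axis). At P10, replicate 1 lies above 1 for the 4 genes and below 1 for the epithelial and endothelial markers.

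From E17.5 to P3, 4 of the 11 marker sums were higher without overlap, 3 were lower and 4 overlapped. Higher with the 4 genes were the sums of airway epithelial markers (19.3 to 32.2 CPM at E17.5, 86.7 to 138 at P3), alveolar epithelial markers (130.0 to 171, then 174 to 255), immune markers (10.8 to 13.4, then 21.1 to 23.2) and Schwann cell and neuron markers (3.94 to 5.16, then 5.20 to 9.82). At P3 the airway sum was mostly Tppp3 (mean 12.6 CPM at E17.5, 78.9 at P3) and Scgb1a1 (1.75, then 29.7), while Tekt1 fell. The alveolar sum was mostly Sftpc (93.7, then 132, adjusted p = 0.43, edgeR). The Schwann cell sum was mostly S100b (3.89, then 6.55, adjusted p = 0.0526, edgeR). Of tested markers, 2 of 5 airway, 3 of 14 alveolar, 3 of 7 immune and 0 of 1 Schwann cell markers rose. Over all tested genes 13.1% rose. Lower were those of pericytes (329 to 487 CPM, then 142 to 195), erythroid cells (117 to 179, then 31.9 to 53.6) and the mesothelium, the lining of the lung (11.8 to 19.5, then 3.41 to 5.67). Of the 4 tested mesothelial markers, 2 fell. They were Krt19 (9.30 CPM at E17.5, 2.54 at P3) and Rspo1 (5.32, then 0.174), most of the sum at E17.5. The sums of secondary crest myofibroblast, alveolar fibroblast, adventitial fibroblast and endothelial markers overlapped. A sum can hold opposite changes. Of 15 tested secondary crest myofibroblast markers, 6 rose, among them Aspn (log2 fold change 4.55), and 6 fell, among them Hhip (-2.57). Of all tested genes, 25.1% passed in either direction. The part of these sums in the levels of the 4 genes was not tested.

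Mesothelial markers, of which 10 of 11 were measured, lay between 2.79 and 5.02 CPM at P7 and between 1.37 and 4.32 at P10. Wt1, Upk1b, Upk3b and Muc16 were listed at 0 in every E17.5 library. Among the E17.5 libraries, replicate 1 stood apart in the sum of the 12 alveolar fibroblast markers, at 4428 CPM against 1346 and 1125, and none of the 4 genes was above both other E17.5 libraries there. The stage means of Acta2 were 492, 1025, 822 and 487 CPM and those of Pdgfra 346, 179, 191 and 221 CPM. RNA of both genes was thus present at every stage, but bulk means do not show that the same cells carried both.

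At limits of 1 and 10 CPM, an absent-to-present pattern was rare among all genes. Just 2 of the 16827 tested genes were below 1 CPM in each E17.5 library and above 10 CPM in each P3 library. They were Prokr2 and Lrrc15, both among the 4. The limits use the same levels by which the 4 were chosen, so their place inside them supports nothing further. Prokr2 and Lrrc15 stayed above 10 CPM in every P7 and P10 library. In the opposite direction, above 10 CPM at E17.5 and below 1 at P3, there was 1 gene outside predicted gene models. Prss35 missed these limits in each E17.5 library, at 5.78, 4.57 and 6.31 CPM. Anxa8 missed them through its 6.08 CPM in P3 replicate 3, and it was inside them when that library was left out.

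Other genes lay just outside the same limits. Dab1, an adaptor of reelin signalling, reached 0.939 CPM at most at E17.5 and 5.95 at least at P3. Ackr3, a scavenging chemokine receptor, reached 1.16 at most at E17.5 and 17.2 at least at P3. Sod3, the extracellular superoxide dismutase, had 1.43 and 10.7 CPM, and Enpp1, an enzyme that makes pyrophosphate, 1.51 and 28.8 CPM. Srp54a, a signal recognition particle gene with near-identical copies, was listed at 0 at E17.5 and had at least 8.12 CPM at P3, and its value is uncertain for that reason. With limits of 2 and 5 CPM, chosen after seeing the data, 24 genes were inside, 3 of them among the 4.

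**Figure D4:**
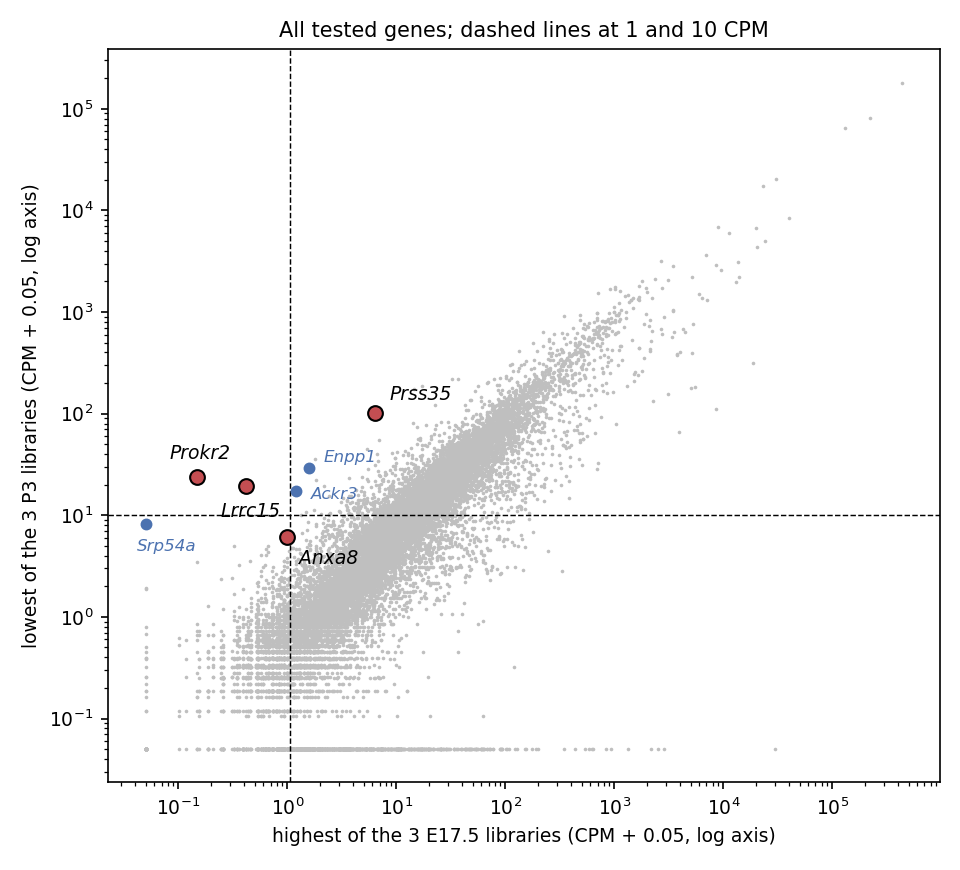
Highest of the 3 E17.5 libraries against lowest of the 3 P3 libraries for each tested gene (CPM, both axes log), with dashed lines at 1 and 10 CPM. Only Prokr2 and Lrrc15 lie in the upper left field, and Anxa8 and Prss35 each lie outside 1 line.

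The genes most like each of the 4 over the 12 libraries were ranked by Pearson's r on log2(CPM + 0.5) among 7477 genes. The lists depend on the measure: by Spearman's rank correlation 0 of the 5 genes of Prokr2 stayed among its first 5, and 1 of 5 for each of the other three. With a pseudocount of 2 the numbers were 4 for Prokr2, 2 for Lrrc15, 5 for Prss35 and 3 for Anxa8. For Prokr2 they were Lgals9 (0.987), a galectin, Cpt1a (0.986), which brings fatty acids into mitochondria, Ackr3 (0.980), Tshz2 (0.979), a zinc finger factor, and Lrrc15 (0.978). The stage means of Lgals9 were 5.40, 21.9, 25.9 and 24.6 CPM, a far smaller step than that of Prokr2. For Lrrc15 they were Gpc4 (0.993), a cell surface proteoglycan, Lgals9 (0.992), Me1 (0.991), Aard (0.990) and Cd34 (0.990), a surface sialomucin. Cd34 stood at 24.2, 263, 295 and 280.1 CPM in order of age.

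For Prss35 the leading genes were Me1 (0.990), Tars (0.989), a transfer RNA synthetase, Lrrc15 (0.987), Aard (0.981) and Lgals9 (0.979). Anxa8 had other neighbours: Psma4 (0.974), a proteasome subunit, Atpif1 (0.971), an inhibitor of the mitochondrial ATP synthase, Dnajc2 (0.963), a ribosome-bound chaperone, Mrpl16 (0.962), a mitochondrial ribosome protein, and Dcaf13 (0.962), which acts in ribosome assembly. The stage means of Atpif1 were 418, 890.3, 701 and 592 CPM, highest at P3 and lower at P7 and P10, as the means of Anxa8 were. Lrrc15 was the third gene for Prss35, and Prss35 the seventh for Lrrc15, while Anxa8 came 545th for Prokr2, 537th for Lrrc15 and 378th for Prss35. These points share the step between E17.5 and P3, so r describes that step first.

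The prokineticin system around Prokr2 was measured through 6 other genes, 3 of them tested. From E17.5 to P3, 2 of the 3 rose and 0 fell, where 25.1% of all tested genes passed in either direction and 13.1% passed as higher. Prokr1, the other prokineticin receptor, stood at 0.272, 0.195 and 0.417 CPM in the E17.5 libraries and at 1.71, 1.31 and 2.16 CPM in the P3 libraries, and rose by 2.47 on the log2 scale (SE 0.36, adjusted p = 0.000849, edgeR). Prokr1 stayed low, at 1.93 CPM at P7 and 1.48 at P10, and P3 replicate 3, the lowest P3 library for Prokr2, was the highest for Prokr1. No stretch of 50 bases was shared between annotated transcripts of the 2 receptor genes. Gna11, a G protein subunit that such receptors signal through, rose by 0.44 on the log2 scale (SE 0.10, adjusted p = 0.00881), a call that ended in a fit of the 6 libraries alone (adjusted p = 0.0623). Gnaq, its close relative, gave 0.20 (adjusted p = 0.298). The ligand genes Prok1 and Prok2 had means of at most 0.065 and 0.023 CPM at any stage and were not tested.

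Among the other annexins and the S100 proteins that pair with them, 8 of 13 tested genes rose from E17.5 to P3 and 0 fell. Of all tested genes, 13.1% passed as higher. The median log2 fold change was 0.74 against -0.05 over all tested genes. Among the 8, the call of S100a11 was lost in 6 of 20 alternatives. S100a6, a small calcium-binding protein, rose from 2.67 to 16.2 CPM, a log2 change of 2.59 (SE 0.35, adjusted p = 0.000563, edgeR). Anxa1, an annexin known for limiting inflammation, rose from 3.96 to 14.1 CPM (1.82, adjusted p = 0.000251, edgeR). S100a10, the partner of Anxa2, rose by 1.28 and Anxa11 by 1.19 on the log2 scale. Anxa2 itself rose from 113 to 183 CPM (0.69, SE 0.16, adjusted p = 0.0111, edgeR), a level well above that of Anxa8 at every stage. From P7 to P10, 0 of the 13 passed in either direction, where 1.40% of all tested genes passed as higher and 2.25% as lower.

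Among 23 tested leucine-rich repeat surface and matrix genes other than Lrrc15, 0 rose and 5 fell from E17.5 to P3, with a median log2 fold change of -0.38; of all 16827 tested genes, 2024 fell. Amigo2, an adhesion protein, fell from 25.0 to 5.14 CPM, a log2 change of -2.28 (SE 0.17, adjusted p = 2.42e-05, edgeR), the opposite of Lrrc15. Flrt2, Lrig1 and Lrrc4b gave -0.78, -0.73 and -0.72 with adjusted p = 0.0496, 0.0220 and 0.0439 (edgeR). The Flrt2 call was lost in 17 of 20 alternatives, among them DESeq2, limma-voom and the replicate block, the Lrrc4b call in 14 and the Lrig1 call in 5. The list held 2 calls without E17.5 replicate 2 or without P3 replicate 3. At P10 against P7, 0 of the 23 passed, where 1.40% of all tested genes passed as higher and 2.25% as lower.

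Of 19 tested serine proteases and serpins other than Prss35, 3 rose and 4 fell from E17.5 to P3, with a median log2 fold change of 0.17. The 3 that rose are a share near the 13.1% over all tested genes. Of all 16827 tested genes, 2024 fell. Prss23, the nearest relative of Prss35, fell from 3.18 ± 0.87 to 0.498 ± 0.215 CPM, a log2 change of -2.66 (SE 0.47, adjusted p = 0.00244, edgeR). Corin, a membrane protease that activates a natriuretic peptide, fell by 3.05 and Pcsk5, a proprotein convertase, by 1.74 on the log2 scale. Plau, the urokinase gene, gave 3.16 (SE 0.93, adjusted p = 0.0310, edgeR), from 0.403 to 3.60 CPM, but its call ended without any one of 5 of the 6 libraries compared, at adjusted p = 0.0987 without E17.5 replicate 3. Between P7 and P10, 0 of the 19 passed, where 1.40% of all tested genes passed as higher and 2.25% as lower.

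**Figure D5:**
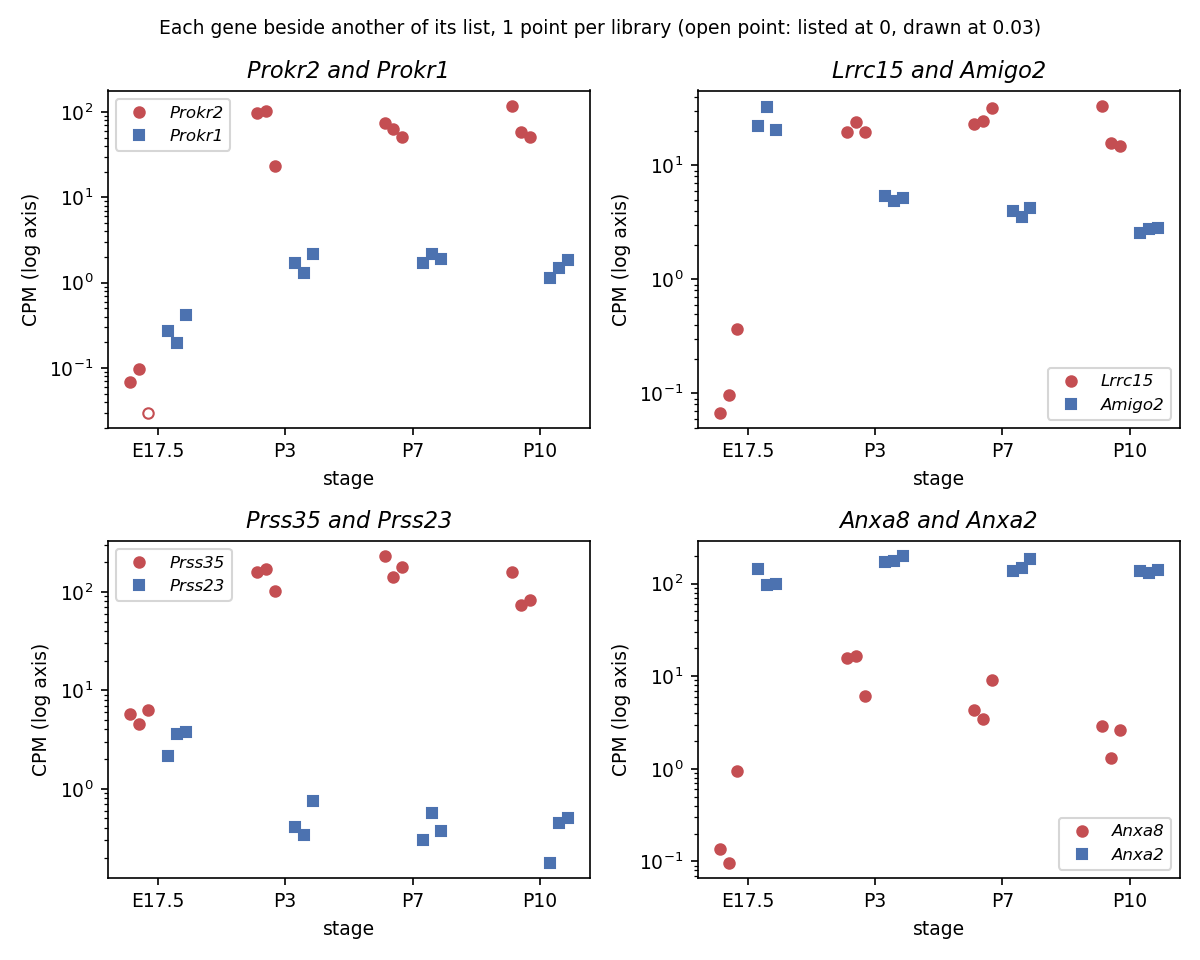
Level in each library (CPM, log axis) of Prokr2 with Prokr1, Lrrc15 with Amigo2, Prss35 with Prss23 and Anxa8 with Anxa2, by stage. Prss35 and Prss23, and Lrrc15 and Amigo2, move in opposite directions from E17.5 to P3, while Anxa2 stays above Anxa8 in all 12 libraries.

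Lrrc15 is known as a gene induced by TGF-beta. Of 18 tested genes of TGF-beta activated myofibroblasts, 2 rose and 3 fell from E17.5 to P3, with a median log2 fold change of 0.06, counts near the 25.1% of all tested genes that passed in either direction and the 13.1% that rose. Tnc, the matrix glycoprotein tenascin C, rose from 306 to 941 CPM (1.62, SE 0.18, adjusted p = 0.000180, edgeR), and Thbs2, a thrombospondin, rose by 0.97 on the log2 scale. Col11a1, a fibrillar collagen gene, fell by 1.47 and Itgb5, an integrin subunit, by 0.83. Of the 18, 1 passed between P7 and P10, where 2.25% of all tested genes passed as lower. It was Adam12, a membrane metalloprotease, at -1.42 (adjusted p = 0.0473, edgeR). Its call ended without any one of the 6 libraries compared (adjusted p = 0.168 without P10 replicate 2, edgeR).

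Of the 11 ligands, receptors and signal carriers of TGF-beta, 3 rose and 3 fell from E17.5 to P3. Of all 16827 tested genes, 13.1% rose and 2024 fell. Among the 3 that fell, the call of Skil was lost in 12 of 20 alternatives. From P7 to P10, 0 of the 11 passed, where 1.40% of all tested genes passed as higher and 2.25% as lower. Tgfb2, a ligand gene, rose from 16.2 ± 3.07 to 79.8 ± 3.40 CPM, a log2 change of 2.30 (SE 0.23, adjusted p = 0.000117, edgeR). Tgfb3, another ligand gene, rose by 1.24 and Smad3, a signal carrier, by 0.87 on the log2 scale. Tgfbr3, the co-receptor betaglycan, fell from 299.6 to 124 CPM, by 1.28 on the log2 scale. These lists were chosen with results of the same libraries known, so their counts are no independent evidence of a direction.

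Within 100 kb of the 4 genes, 7 annotated genes were tested, 3 of them higher at P3, where 13.1% of all tested genes were, and 0 lower. Of the 3, Me1 and a gene model inside it cannot be counted as separate with certainty. Near Prss35, both tested neighbours passed. Me1, the malic enzyme that supplies NADPH, lies 47.7 kb away on the opposite strand and rose from 4.62 ± 0.80 to 30.9 ± 3.03 CPM, a log2 change of 2.73 (SE 0.16, adjusted p = 8.10e-06, edgeR). It stood at 31.1 CPM at P7 and 25.7 at P10. By Pearson's r, Me1 was also the gene most like Prss35 over the 12 libraries. That likeness describes the same step from E17.5 to P3 first, so it adds no separate evidence. The other, the predicted gene model Gm38230, lies within Me1 on the same strand, so that their reads cannot be told apart with certainty, and rose from 0.393 to 1.05 CPM (adjusted p = 0.0330, edgeR), a call lost without any single E17.5 library.

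Near Prokr2, 1 of 3 tested neighbours passed: Pcna, the sliding clamp of DNA replication, 84.4 kb away, rose from 53.4 to 105 CPM (log2 fold change 0.98, adjusted p = 0.000316, edgeR). Cds2 and Tmem230 did not pass. Near Lrrc15 the 1 tested neighbour, Atp13a3, gave 0.18 (adjusted p = 0.457), and Cpn2, which lies 1.80 kb away, had means of at most 0.140 CPM at any stage. Near Anxa8 the 1 tested neighbour, the ribosomal protein pseudogene Rpl23a-ps3, gave -0.23 (adjusted p = 0.501). The gene A630023A22Rik overlaps Anxa8 on the opposite strand and was at most 0.053 CPM in any library.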

How the data were processed

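The 4 genes, the gene lists and the tests were chosen with earlier results of these data known. Per the labels, RNA of the sorted cells went into a stranded total RNA kit for very low input, while the molecule label names polyA RNA. The authors deposited 1 table of estimated (expected) counts, whole numbers per gene symbol, on GRCm38 per the submitters' processing notes; no aligner or quantifier, nor the annotation, is given in the sources used here. These deposited values look scaled by transcript length: in genes with a single transcript of 100 to 149 nt the commonest value above 0 was 54, and from 1200 nt up it was 1. Low values are therefore not reads, and no limit is drawn from a 0. Library totals were 13328623 to 18740591 estimated counts, with 20234 to 21235 genes above 0, and the 7SL and 7SK genes held 20.0% to 46.3% of a total.

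CPM used TMM library sizes. Tests used edgeR 4.0.16 (limma 3.58.1, R 4.3.3): filterByExpr by stage left 16827 genes, and 1 robust quasi-likelihood model over 12 libraries was fitted with Benjamini-Hochberg adjustment at 0.05. Every adjusted p is from this test unless another tool is named. The fit was tested on simulated data. Named genes were the 4, their 5 most like genes with a stage mean of at least 10 CPM, genes that passed the limits of 1 and 10 CPM, neighbours within 100 kb, up to 4 genes a list by fold change, Prok1, Prok2, Prokr1, Prss23 and Anxa2, and the reporter genes, without predicted models among the most like genes. Dab1, Ackr3, Sod3, Enpp1 and Srp54a were named after their values were seen. GENCODE M21 gave positions for 92.3% of genes. Alternatives were other scalings, removal of the 7SL and 7SK rows, no filter, DESeq2 1.42.0, limma-voom, the 6 libraries alone, a replicate block, a minimum fold of 1.5 and each library left out, and for likeness a rank correlation and a pseudocount of 2.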

Additional observations from a re-analysis of the deposited data

How the results depend on the processing

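From P7 to P10, Lrrc15 and Anxa8 kept their sign and did not pass under all 20 alternatives. With 1 library left out the log2 fold change ranged from -0.83 to -0.09 for Lrrc15 and from -1.54 to -0.77 for Anxa8. Prokr2 ranged from -0.23 to 0.51, with its sign turned without P10 replicate 1 only (-0.23), and Prss35 from -1.27 to -0.61, passing without P10 replicate 1 only (-1.27); the cause was not tested. Over all alternatives the adjusted p of Prss35 ranged from 0.0302 to 1. Genes past the threshold from E17.5 to P3 numbered 4225, 2767 with the 6 libraries alone (fewer samples), 1255 with a minimum fold of 1.5, and 2968 to 4305 with 1 library left out. From P7 to P10 they numbered 613, 307 with no filter, 1349 with DESeq2, 10 with a minimum fold of 1.5, and 22 (without P10 replicate 2) to 790 (without P10 replicate 1) with 1 library left out. The replicate block gave 310 for P10 against P7 and 3686 for P3 against E17.5. Same-numbered libraries did not deviate together throughout (correlations 0.102, 0.054 and 0.0748 for P10 with P7, and 0.00457, -0.128 and -0.195 for P3 with E17.5), so the numbers were not taken to pair samples. Under the block Prokr2 gave 0.20, Lrrc15 -0.35, Prss35 -0.86 and Anxa8 -1.25, and none of the 4 passed. The count of genes inside the limits of 1 and 10 CPM was 2 to 4 with 1 E17.5 or P3 library left out and 3 without the 7SL and 7SK rows, settings chosen after seeing the data. Prokr2 and Lrrc15 were inside each time. With a minimum fold of 1.5, the list calls from E17.5 to P3 became 1 higher in the prokineticin system, 5 higher among annexins and S100 partners, 1 lower among leucine-rich repeat genes, 1 higher and 3 lower among serine proteases and serpins, 1 and 2 among TGF-beta activated genes, and 2 and 1 among TGF-beta ligands, receptors and signal carriers. Low levels, above all at E17.5, limit any fold across birth.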

Other observations

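The genes just outside the limits of 1 and 10 CPM, named after their values were seen, are given here by their stage means, with no test of their course. Sod3, the extracellular superoxide dismutase, had means of 0.994 ± 0.388, 12.3 ± 1.86, 20.7 ± 4.85 and 53.6 ± 4.72 CPM (SD, n = 3) in order of age. Enpp1 stood at 1.21 ± 0.27, 30.5 ± 1.79, 40.3 ± 2.07 and 50.3 ± 7.59 CPM. Ackr3 stood at 0.940 ± 0.194, 19.8 ± 2.22, 17.6 ± 5.63 and 25.9 ± 6.88 CPM. Dab1 stood at 0.598 ± 0.334, 10.8 ± 4.56, 23.0 ± 0.93 and 9.59 ± 7.55 CPM.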
